A study of Mus musculus with 3 samples.

Results

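The genes of the cytoplasmic ribosomal proteins were followed in mouse liver against UMRR, the Universal Mouse Reference RNA, which is sold as a mixture of RNAs from several mouse cell lines. Members were chosen by name alone: every probe with 1 gene symbol in the platform annotation that starts with Rpl or Rps, without the Rps6k kinases and without pseudogene symbols. The rule found 241 of the 16273 probes on the array, for 65 of 7984 genes with 1 symbol. Of these genes, 58 encode ribosomal proteins themselves. A further 5 encode close relatives (Rpl7l1, Rpl36al, Rpl39l, Rps4l and Rps27l), and 2 symbols belong to other proteins. Rps19bp1 encodes a partner of the ribosomal protein S19, and Rps23rg1 is a gene derived from Rps23. The study hybridised purchased liver total RNA, labelled with Cy5, together with purchased UMRR, labelled with Cy3, on each of 3 arrays, after a single round of amplification to cRNA. No strain, age or sex is given for either RNA in the labels, and the dyes were not swapped. Both RNAs were bought as 1 product each, so the 3 arrays repeat 1 RNA pair, and p-values reflect only how far the arrays scatter, which may be a technical spread.

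Each ribosome has a large subunit, which joins amino acids, and a small subunit, which reads the mRNA, and nearly every ribosomal protein is present once per ribosome. The stalk of the large subunit, built of P0, P1 and P2, is the exception, since it carries several copies of the small acidic proteins P1 and P2, and it recruits the translation factors that drive elongation. Ribosomal protein mRNAs are among the most abundant of growing cells, and in mammals they begin with a stretch of pyrimidines, the terminal oligopyrimidine tract, through which their translation follows nutrient signals.

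RefSeq promoter sequences (GRCm38.p6) were found for 55 of the 65 genes. The following 70-base windows run from 50 bases before the annotated start to 20 bases from it, 5′ to 3′ on the gene's strand, with the longest run of C or T that begins within 30 bases before the start or later in capitals. They are shown for stalk genes, for genes whose probes differed and for relatives set beside the gene they resemble, since these carry the contrasts described below.
Rplp0, chr5:115559417-115559486 on the plus strand: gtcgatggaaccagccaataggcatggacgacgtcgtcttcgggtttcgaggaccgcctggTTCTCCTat
Rplp2, chr7:141447601-141447670 on the plus strand: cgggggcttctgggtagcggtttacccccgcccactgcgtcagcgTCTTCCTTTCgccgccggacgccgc
Rpl27a, chr7:109519145-109519214 on the plus strand: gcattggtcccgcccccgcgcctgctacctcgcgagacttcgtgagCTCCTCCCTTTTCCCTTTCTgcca
Rpl35a, chr16:33056432-33056501 on the plus strand: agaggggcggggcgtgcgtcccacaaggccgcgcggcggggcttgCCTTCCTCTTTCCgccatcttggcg
Rpl39l, chr16:10170178-10170247 on the plus strand: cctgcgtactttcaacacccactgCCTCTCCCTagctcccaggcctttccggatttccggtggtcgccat
Rpl39, chrX:37085203-37085272 on the minus strand: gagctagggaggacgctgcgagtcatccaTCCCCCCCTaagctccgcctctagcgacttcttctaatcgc
Rps27l, chr9:66946036-66946105 on the plus strand: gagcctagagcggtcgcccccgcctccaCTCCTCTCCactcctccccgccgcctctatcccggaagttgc
Rps27, chr3:90213629-90213698 on the minus strand: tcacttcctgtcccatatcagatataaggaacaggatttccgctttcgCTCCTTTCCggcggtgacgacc

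Where a gene has several annotated starts (3 for Rpl35a and 2 for Rps27l), the window is that of the start with the longest run. In Rplp2, Rpl27a, Rpl35a and Rps27 the run spans the annotated start. In Rplp0 it begins 12 bases into the transcript, and in Rpl39l, Rpl39 and Rps27l it lies upstream. A run of at least 8 pyrimidines within 30 bases on either side of any annotated start was found in 30 of the 55 genes (54.5%), against 25% of the 4449 tested genes with a promoter. On the gene's strand in the same stretch, CTTTC was present in 38.2% of the 55 genes, against 7.96% of the tested genes, and CTTCC in 32.7%, against 16.9%. Over the whole promoter window, from 250 bases before to 50 after the start, and both strands, CGGAAG, the core bound by ETS factors, was present in 69.1%, against 31.1%. Its reverse strand holds CTTCC, so the counts overlap. ATGGCG, part of the YY1 motif, was found in 29.1%, against 16.3%, and GGGCGG, the core bound by Sp1, in 65.5%, against 59.5%. TATAAA in the 50 bases before the start, on the gene's strand, was found in 0 of 55, against 2.72%. Among all 27025 genes of the promoter table the shares were 25.8% for the pyrimidine run, 9.18% for CTTTC, 14.4% for CTTCC, 18.8% for CGGAAG, 10.2% for ATGGCG, 38.2% for GGGCGG and 3.15% for TATAAA. Run length and liver ratio had a Pearson's r of -0.011 and a Spearman's rho of -0.177 across 52 genes, given as a description, since annotated starts are approximate.

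Ratios are log2 of liver over UMRR as deposited by the authors. No source used here states their base or direction. They were taken as log2, and if they were natural logs each value would grow by a factor of 1.44. Positive was read as higher in liver, because the hepatocyte secretory genes measured on all arrays, 4 of 6 on the array, had array medians of 4.29, 4.70 and 4.74. An exact 0 was read as no ratio. It was listed for 14.5%, 7.88% and 16.6% of the ribosomal probes on arrays 1, 2 and 3, against 30.3%, 21.4% and 27.8% of all probes with 1 symbol. A ratio on every array was found for 193 ribosomal probes (80.1%, against 62.3% of other probes with 1 symbol), which gave 62 genes. Of the 3 genes left, Rps12 stood at -1.14 and -1.32 on arrays 2 and 3, Rps23rg1 at 0.32 on array 2, and Rps18 had an exact 0 on each array.

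Ribosomal protein genes were lower in liver as a family. Of 62 measured genes, 51 were lower and 3 higher in the limma test of each gene against a ratio of 1 (adjusted p of 0.05, Benjamini-Hochberg over 5520 genes), and 8 did not pass. Among all genes tested, 33.9% were lower, 30.1% higher and 64% either. The median over the family was -0.87, or -0.79, -0.85 and -0.82 as the medians of arrays 1, 2 and 3, and the median of all genes was -0.028. The middle of the family was narrow, with quartiles of -1.09 and -0.47, against -0.54 and 0.42 for all genes. On every array 52 of the 62 genes (83.9%) lay below 0, as did 41.6% of all genes. At least 2-fold lower on every array were 11 genes (17.7%), against 9.53% of all genes. With probes averaged as they stand, Rpl35a was the member at least 2-fold higher on every array, as were 9.46% of all genes. Among the 56 ribosomal proteins alone (chosen as a setting after the values were seen), 49 were lower and 2 higher. These ratios are relative to all RNA on the array, and in bulk RNA fewer cells of a type and less RNA per cell cannot be told apart.

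**Figure D1:**
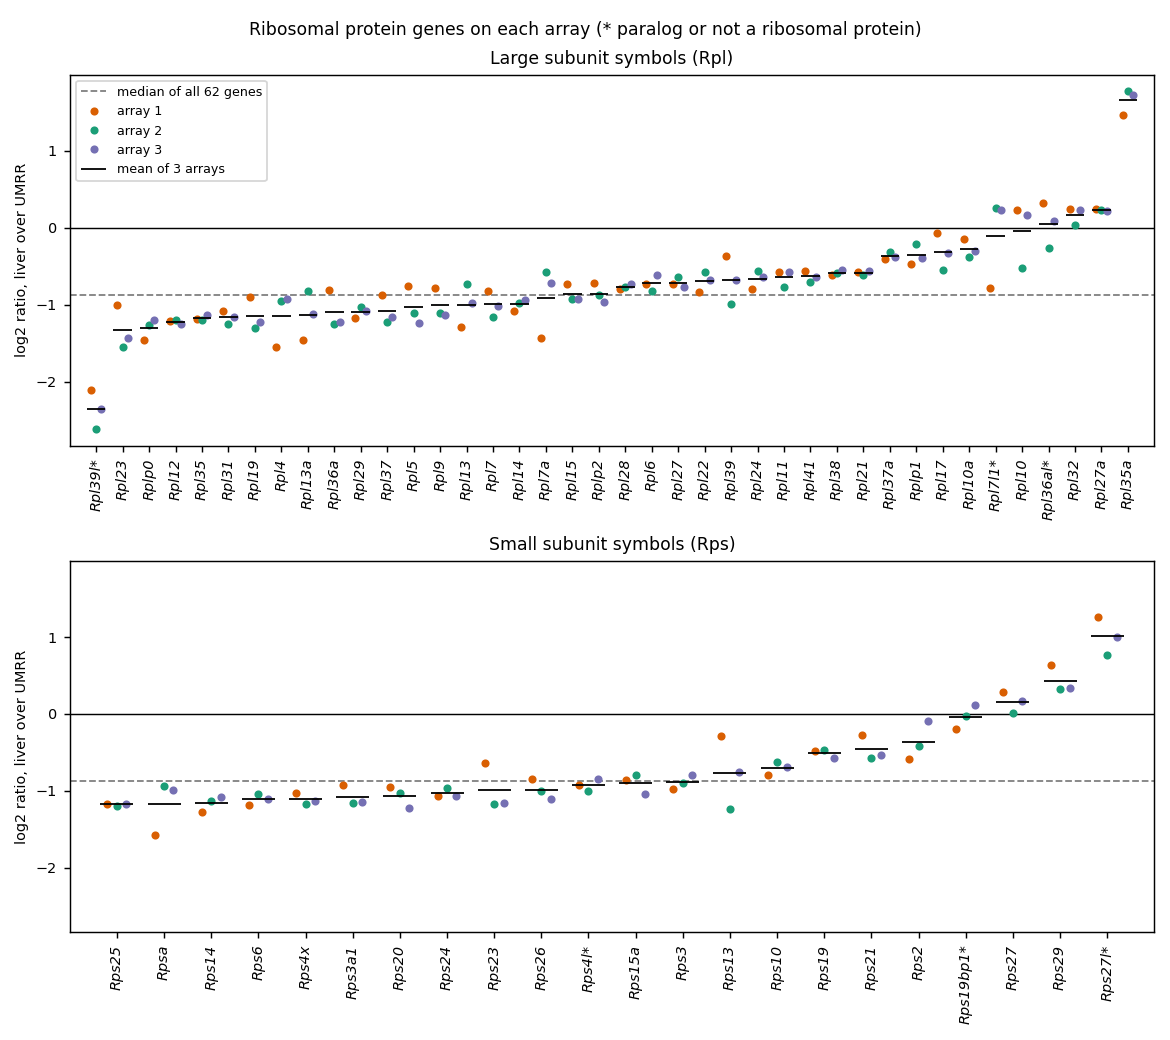
Log2 ratio of liver over UMRR (y axis) for each of 62 measured genes, of which 51 were lower. Genes are sorted by mean within the large subunit (upper panel, 40 genes) and the small subunit (lower panel, 22 genes). Points are the 3 arrays, black bars their mean, and the dashed line is the family median of -0.87. Most genes sit around that line, and Rpl39l lies below it. Rpl35a and Rps27l lie furthest above 0, and Rps29, Rpl27a, Rpl32 and Rps27 also lie above 0 on each array.

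The 40 large subunit genes had a median log2 ratio of -0.81, with 33 lower and 1 higher, and the 22 small subunit genes one of -0.91, with 18 lower and 2 higher. On arrays 1, 2 and 3 the large subunit median exceeded the small one by 0.067, 0.15 and 0.16 (mean 0.13 ± 0.052, SD, n = 3 arrays). Taken from the genes' means over arrays, the difference was 0.096, and it was 0.050 with exact zeros kept as ratios of 1 and 0.054 with the median probe per gene. The difference was not tested. Single genes had an SD of 0.62 within the large and 0.59 within the small subunit. Among ribosomal proteins alone the medians were -0.86 for 37 large and -0.98 for 19 small subunit genes.

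The stalk genes were all lower in liver but stood apart from each other. Rplp0, which encodes the P0 scaffold of the stalk, stood at -1.46, -1.27 and -1.20 on arrays 1, 2 and 3. This is a mean of -1.31 ± 0.14 (SD, n = 3) or 2.48-fold lower (limma, adjusted p = 7.96e-05). Rplp2, which encodes P2, stood at -0.72, -0.88 and -0.97, a mean of -0.86 ± 0.12 or 1.81-fold lower (limma, adjusted p = 0.000453). Rplp1, which encodes P1, stood at -0.47, -0.21 and -0.39, a mean of -0.36 ± 0.14 or 1.28-fold lower (limma, adjusted p = 0.0207). On each array Rplp0 was the lowest and Rplp1 the highest of the stalk genes. Rplp1 missed the threshold when array 3 was left out (adjusted p = 0.15), with zeros kept (adjusted p = 0.0669) and with unmoderated variances (adjusted p = 0.0864).

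The value of Rplp1 joins probes that differed. Probe 2644 stood at -0.95, -0.51 and -0.86, close to Rplp2, whereas probe 17943 stood at 0.0085, 0.10 and 0.087. The difference was 0.84 ± 0.20 (limma over probe pairs, adjusted p = 0.00478). The 3 measured probes of Rplp0 had means of -1.51, -1.21 and -1.21, and both measured probes of Rplp2 had means of -0.87 and -0.85. Rpl12, whose protein sits with P0 at the base of the stalk, was nearly the same on every array, at -1.22, -1.20 and -1.25, or 2.33-fold lower (limma, adjusted p = 6.92e-05).

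Genes of other parts of the ribosome were mostly lower, as was the family (82.3%, against 33.9% of all genes). Rpl5 and Rpl11, whose proteins carry the 5S rRNA into the large subunit, were lower by 2.05-fold and 1.56-fold. At the tunnel through which the new protein leaves, Rpl4 (-1.14) and Rpl39 (-0.68), which line it, were lower, and so were Rpl19 (-1.14), Rpl31 (-1.17) and Rpl35 (-1.17) near its exit. Rpl17, also of the tunnel wall, stood at -0.067, -0.55 and -0.33 and did not pass (adjusted p = 0.0594). In the small subunit, 8 of 8 measured genes grouped under the head and mRNA path were lower (median -0.98), against 33.9% of all genes. They included Rps14 of the platform (-1.16 ± 0.098, SD, n = 3) and Rps2 of the mRNA entry (-0.37 ± 0.26). Rps29 of the head and Rps27, both described below, were not in that group. Rps29 was higher, and Rps27 (0.15) did not pass. The group was written after the files were read, so its count depends on which genes it takes in. Rpsa, also known as the laminin receptor, stood at -1.58, -0.93 and -0.99, lowest on array 1 (2.24-fold lower, limma, adjusted p = 0.00071). With unmoderated variances the calls of Rpl39 (adjusted p = 0.109) and Rpsa (adjusted p = 0.066) were lost, as they were with zeros kept (adjusted p = 0.0894 and 0.0664). The 4 measured genes on the X chromosome, Rps4x, Rpl36a, Rpl39 and Rpl10, had a median of -0.89.

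Single genes were then set against the level the family shares, by subtracting the family median of each array before the limma fit. Of the 62 genes, 19 were above that level and 13 below it, while 74% of all genes were above, 10.7% below and 84.7% either. The count above ranged from 13 to 21 when 1 array was left out. The count below was 21 without array 1, 4 without array 2 and 3 without array 3, and so rests on which arrays are used. A distance under 0.5 was found for 48 genes, and for 47 of the 56 ribosomal proteins. Between genes the SD was 0.60, and between the arrays of 1 gene it had a median of 0.13, against 1.09 and 0.17 over all genes tested. The arrays repeat the same probes, so differences between probes of 1 gene are part of the SD between genes but not of the SD between arrays.

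Above the level, Rpl35a stood highest, at 1.47, 1.77 and 1.72 on arrays 1, 2 and 3. It encodes a large subunit protein whose human gene is mutated in some families with Diamond-Blackfan anaemia. Its distance from the level was 2.48 (SE 0.11, adjusted p = 1.19e-05), and its own ratio 1.65 ± 0.16 (SD, n = 3, limma, adjusted p = 3.59e-05). The value rests on 1 source sequence spotted several times, as described below, and was 1.00 when sources were weighted equally. Its distance was then 1.81, beside 1.82 for Rps27l, so its first place did not hold under that weighting. Rps29, a zinc-binding protein of the small subunit's head, stood at 0.64, 0.32 and 0.34 on its single probe, a distance of 1.25 (adjusted p = 9.53e-05). Its difference from a ratio of 1 (0.43 ± 0.18, adjusted p = 0.0128) did not hold when array 3 was left out (adjusted p = 0.0551), with zeros kept (adjusted p = 0.076) or with unmoderated variances (adjusted p = 0.0959). Rps27, another zinc-binding protein of the small subunit, stood at 0.28, 0.0065 and 0.17, with a distance of 0.98 (adjusted p = 0.000181) and no call against a ratio of 1 (adjusted p = 0.221). Rpl27a (0.24, 0.23 and 0.22) and Rpl32 (0.24, 0.038 and 0.23), both of the large subunit, were 1.05 and 0.99 above the level (adjusted p = 0.000102 and 0.000154). Neither passed against a ratio of 1 (adjusted p = 0.063 and 0.168). Of the 19 genes above the level, 8 were still called lower in liver than in UMRR, among them Rplp1 and Rps19 (-0.51), another Diamond-Blackfan gene in human. The distance of Rplp1 from the level, 0.47 (adjusted p = 0.00613), missed the threshold without array 2 (adjusted p = 0.0524) and with unmoderated variances (adjusted p = 0.0568). That of Rps19 missed it without array 2 (adjusted p = 0.115), without array 3 (adjusted p = 0.0982), with zeros kept (adjusted p = 0.104) and with the mean as the level (adjusted p = 0.079). Rps19 also joins probes that differed, with means of -0.75 and -0.26 (limma over probe pairs, adjusted p = 0.0257). Of the 14 genes above the level with several source sequences, 8 had sources at least 0.5 apart, against 3 of 11 below it. The share over all genes was not taken at this cut. The same source values enter the means that made the calls, so these counts are a description only.

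Below the level, the gene furthest away was Rpl39l, described with the relatives. Rpl23, which joins the face of the large subunit where the subunits meet, stood at -1.01, -1.55 and -1.43, a distance of -0.51 (SE 0.12, adjusted p = 0.0091), which was lost without array 2 (adjusted p = 0.0578), with zeros kept (adjusted p = 0.0771) and with unmoderated variances (adjusted p = 0.0963). Rplp0 had a distance of -0.49 (SE 0.10, adjusted p = 0.00486) and passed without any 1 array. Rpl12 followed at -0.40 (adjusted p = 0.00613), lost without array 3 (adjusted p = 0.0727). Rps25 (-0.35, adjusted p = 0.00954), Rpl35 (-0.35, adjusted p = 0.01), Rpl31 (-0.34, adjusted p = 0.0115) and Rps14 (-0.34, adjusted p = 0.0171) each lost the call without array 2 and without array 3. On its own ratio, each of these genes was lower in liver on each array.

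Most relatives stood apart from the genes they resemble. Rpl39l, a copy of Rpl39 known from testis, was the lowest of the 62 genes, at -2.11, -2.61 and -2.36 (5.14-fold lower, limma, adjusted p = 1.76e-05). Rpl39 itself stood at -0.37, -0.99 and -0.68, so the copy was lower on every array, with a mean difference of -1.68 ± 0.062 (SD, n = 3). That Rpl39 value includes probe 2404, with a mean of 0.47, while the other Rpl39 probes had means between -1.20 and -0.99. The gap to those other probes alone is smaller. The distance of Rpl39l from the shared level was -1.54 (adjusted p = 7.27e-05), and Rpl39l kept its call without any 1 array. Rps27l, a copy of Rps27 that p53 induces in human cells, went the other way. It stood at 1.26, 0.77 and 1.00, a mean of 1.01 ± 0.24 (adjusted p = 0.00054, but 0.05 and no longer called with unmoderated variances), and its 3 probes had means of 0.95, 1.05 and 1.03. It was higher than Rps27 on every array, by 0.85 ± 0.11, and its distance from the shared level was 1.83 (adjusted p = 3.86e-05).

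Rpl36al, a copy of Rpl36a, stood at 0.32, -0.27 and 0.082, and Rpl36a at -0.82, -1.25 and -1.23. The copy was thus higher on each array, by 1.14 ± 0.17 (SD, n = 3). Rps4l and the X-linked Rps4x were nearly level (-0.92 ± 0.077 and -1.11 ± 0.077), with Rps4l higher by 0.19 ± 0.092. Rpl7l1 stood at -0.79, 0.25 and 0.23, below 0 on array 1 only, against -0.82, -1.16 and -1.01 for Rpl7. It was higher in liver without array 1 (0.24, adjusted p = 0.0277). Rps19bp1 stood at -0.19, -0.028 and 0.12, and Rps19 at -0.48, -0.47 and -0.57. The distances between relatives and partners are descriptions, with no test of the difference. Ribosomal protein genes have many near-identical copies in the genome, and a probe can take up RNA of these, so single values are uncertain.

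**Figure D2:**
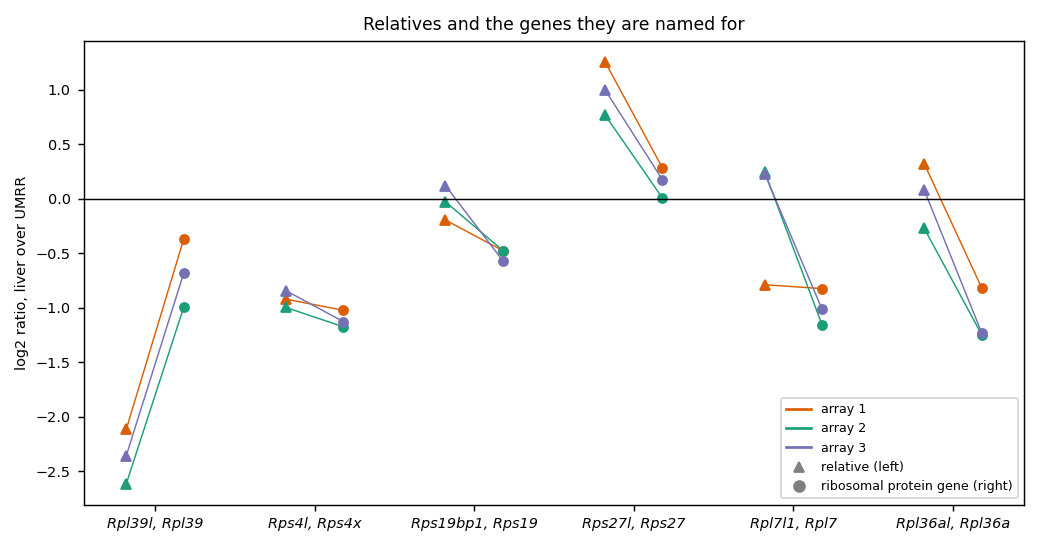
Log2 ratio of liver over UMRR (y axis) for each relative (triangle, left) and the ribosomal protein gene it is named for (circle, right), joined per array. Relative minus partner averaged -1.68 for Rpl39l, 0.85 for Rps27l and 1.14 for Rpl36al. The Rpl39 value includes a probe above 0, which widens the gap to Rpl39l. Rpl7l1 and Rpl7 are level on array 1 and apart on arrays 2 and 3.

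Most genes were measured by several probes, and these did not always give 1 answer. Among the 193 measured probes 164 were below 0 on every array and 20 above it, and those 20 belonged to 11 genes. Probes were grouped by the source sequence that the annotation names for them, which gave 157 measured sources for the 62 genes. Of the 45 genes with at least 2 sources, 8 (17.8%) had sources at least 1 log2 unit apart, against 16.1% of 1180 other genes. The median range was 0.24, against 0.35 in those genes. Sources on both sides of 0 were found for 9 genes. For this count and the probe counts by sign, the share over all genes was not taken.

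Rpl35a showed the widest gap. A source sequence measured at 3 probes stood between 1.95 and 2.69 on every array (means 2.29, 2.28 and 2.38). The other source, at probe 13438, stood at -0.068, -0.62 and -0.28. The probe pairs differed by 2.60 to 2.70 in size (limma, adjusted p of 0.001 to 0.00143). The 3 probes of the first source weigh most in the gene's mean, and with sources weighted equally, which was tried after the values were seen, Rpl35a stood at 1.00 (adjusted p = 0.000167).

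Rpl27a split likewise. A source spotted at probes 9665 and 11225 had means of 1.11 and 1.03, and probe 11764 a mean of 0.70, whereas probes 10282 and 18234 had means of -0.50 and -1.18. Probes 18234 and 9665 differed by -2.29 (adjusted p = 0.000235). With sources weighted equally Rpl27a stood at 0.020 and Rpl32 at -0.15. For Rpl32, 4 probes of 1 source had means of 0.29 to 0.52 and probe 7204 one of -0.68.

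Rpl39 had 3 probes with means between -1.20 and -0.99 and 1 probe (2404) at 0.56, 0.27 and 0.58. Rpl10, the gene of a large subunit protein that joins late in assembly, had probe 13444 at 0.85, 0.65 and 0.79 and probe 16875 at -0.41, -1.69 and -0.45 (difference of -1.62 ± 0.63, adjusted p = 0.00699). Here the gene's mean of -0.043 describes neither probe. Rpl13 and Rps25 differed with the repeated source as the lower side: 4 probes of Rpl13 averaged -1.24 and probe 8891 -0.046, and 4 probes of Rps25 averaged -1.38 and probe 13696 -0.35. With sources weighted equally the distance of Rps25 from the shared level was -0.056 and no longer passed (adjusted p = 0.594).

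**Figure D3:**
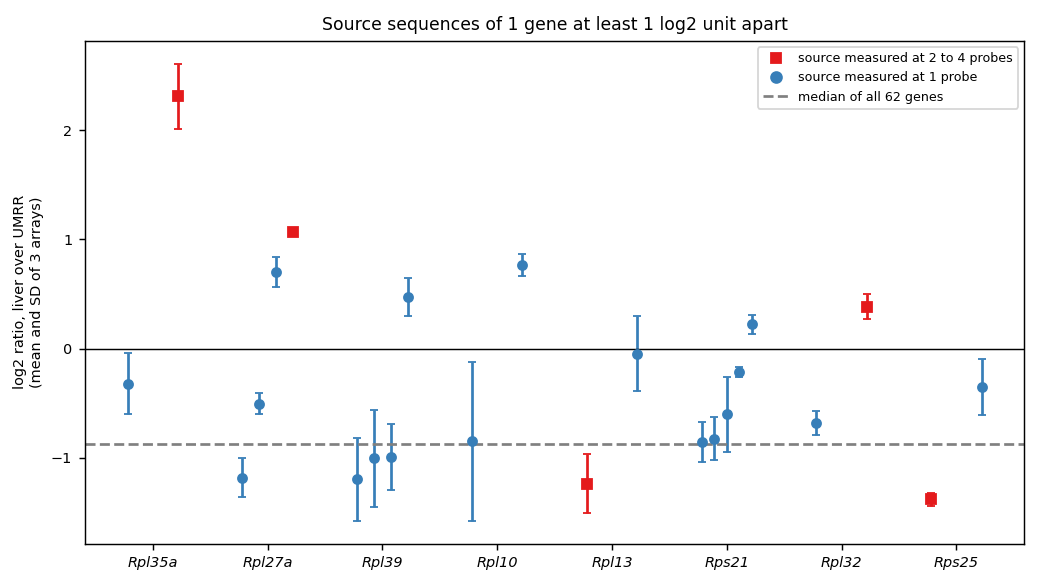
Log2 ratio of liver over UMRR (y axis, mean and SD of 3 arrays) of each source of the 8 genes whose sources lay at least 1 log2 unit apart. Red squares are sources measured at more than 1 probe, blue circles sources measured at 1 probe, and the dashed line is the family median of -0.87; for Rpl35a, Rpl27a and Rpl32 the repeated source is the highest, and for Rpl13 and Rps25 the lowest.

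In 11 genes a source measured at several probes could be set against other sources of the gene. The repeated source was higher in 4 (Rpl21, Rpl27a, Rpl32 and Rpl35a) and lower in 7. Repeat probes of 1 source agreed better than different sources did. Of 70 ribosomal pairs from the same source 4 differed past the test (5.71%), and 11.8% of such pairs of all genes did. Of 250 ribosomal pairs from different sources 63 differed (25.2%), and 25.8% of such pairs of all genes did, so disagreement between sources was about as frequent here as in the whole table. The 4 same-source pairs all belonged to Rpl7a, a large subunit gene, where probe 3390 (-0.38, 0.11 and 0.015) differed from each of probes 3359, 4919 and 4950 (means -1.28, -0.93 and -1.35), and probe 4919 from probe 3359 (0.36, adjusted p = 0.0482). Pairs of 1 gene share probes and are not independent. Without moderation of the variance 0 of the 320 pairs passed, although 87 had an unadjusted p under 0.05 in that fit.

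**Figure D4:**
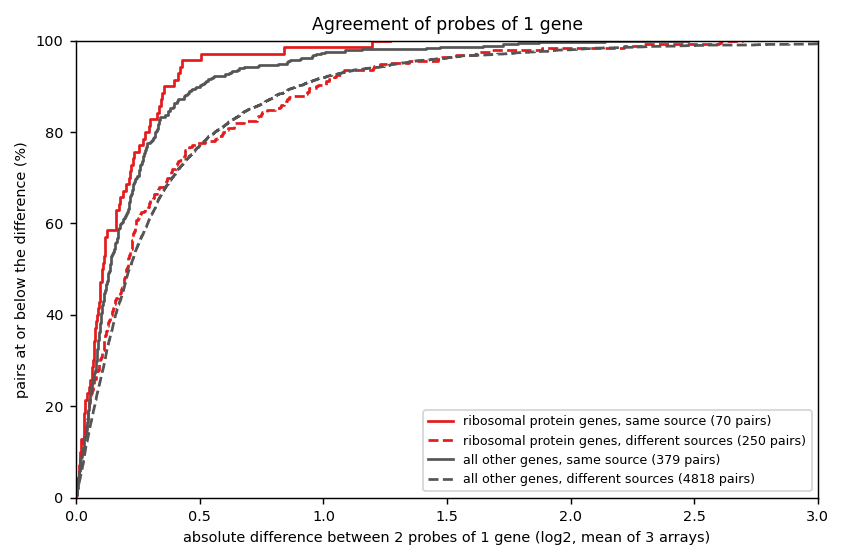
Share of probe pairs of 1 gene (y axis, percent) at or below an absolute log2 difference (x axis), for ribosomal protein genes (red) and all other genes (grey), from the same source (solid) or different sources (dashed). The median difference was 0.11 for same-source and 0.21 for different-source ribosomal pairs, against 0.14 and 0.22 in other genes.

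Genes that share the ribosomal proteins' production were compared by counts. Fau, whose product yields the small subunit protein S30, is the measured ribosomal protein gene outside the naming rule; it was lower in liver at -0.70, -0.28 and -0.66 (limma, adjusted p = 0.0071). In a list of other mRNAs with a terminal oligopyrimidine tract 9 of 9 measured genes were lower (median -0.69), as were 33.9% of all genes. They included the histone chaperone Nap1l1 (-1.54 ± 0.24, SD, n = 3), the initiation factor subunit Eif3e (-1.52 ± 0.18) and the elongation factor Eef1a1 (-0.40 ± 0.33). Against the shared ribosomal level 3 of these 9 were above and 3 below, while 74% of all genes were above and 10.7% below.

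Lists of the machinery that makes and controls ribosomes held few measured genes, 6 of 18 for import and assembly and 4 of 13 for regulators. Their shares are therefore uncertain beside the 33.9% of all genes lower in liver. Of 6 measured genes of import and assembly of ribosomal proteins 2 were lower (33.3%), Wdr12 of the large subunit's processing complex (-1.20 ± 0.51) and the importin Ipo5, which stood at -2.05 on array 1 and -0.68 and -0.44 on arrays 2 and 3. Of 4 measured regulators 1 was lower (25%), Ubtf, which activates rRNA transcription (-0.50 ± 0.078, adjusted p = 0.00401), while the kinase Mtor stood at -0.33, 0.31 and 0.29. Of the kinases that share the Rps6k symbol, Rps6ka5 was lower (-1.58 ± 0.50, adjusted p = 0.000536) and Rps6ka6 stood at 0.32 ± 0.28.

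The mitochondrial ribosome, which translates the mitochondrial mRNAs, ran the other way. Of its 37 measured genes 20 were higher in liver, 3 lower and 14 not past the test, with a median of 0.37, and 30.1% of all genes were higher. Mrps24 (1.48 ± 0.058, SD, n = 3) and Mrpl12 (1.31 ± 0.10) stood highest. Tested against the shared level of the cytoplasmic family, 37 of 37 were above it, as were 74% of all genes.

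**Figure D5:**
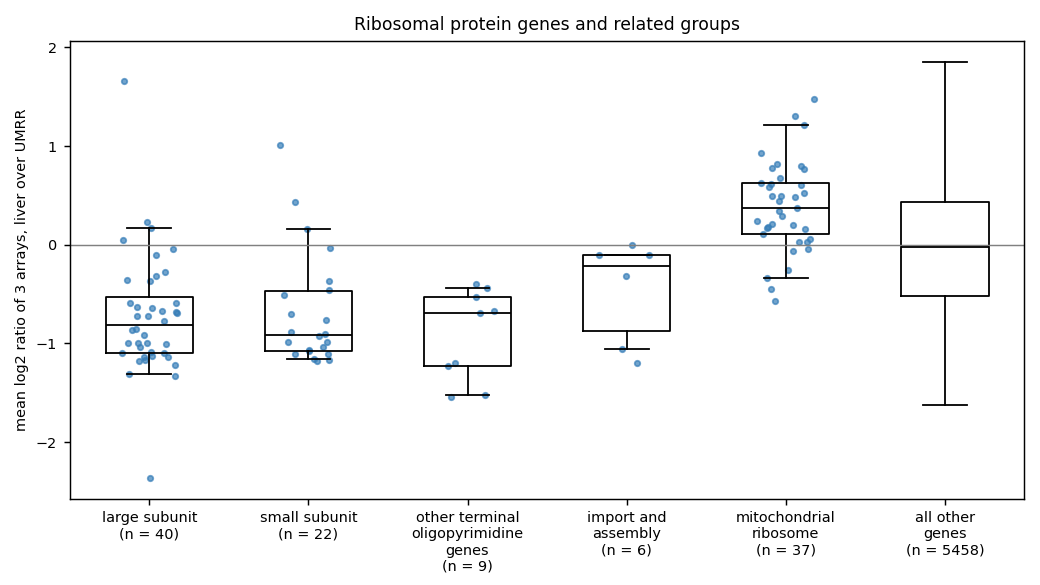
Mean log2 ratio of 3 arrays, liver over UMRR (y axis), for large and small subunit genes, related lists and all other genes. Points are genes, boxes give the quartiles and median, and whiskers reach the 5th and 95th percentiles; the medians are -0.81 for the large and -0.91 for the small subunit, -0.69 for other terminal oligopyrimidine genes, -0.22 for import and assembly, 0.37 for the mitochondrial ribosome and -0.021 for all other genes.

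Markers of other cells moved along with the same contrast. Genes of dividing cells were lower in liver, 6 of 6 measured (array medians of -3.00, -3.09 and -3.21), as were 33.9% of all genes. Of 12 measured genes of pancreatic acinar cells 11 were higher (array medians of 3.40, 3.90 and 3.73, single genes from 0.22 to 5.55), although the label names liver alone. Of 5 erythroid genes 3 were higher, while 30.1% of all genes were. These 3 were the globins Hba-a1, Hba-a2 and Hbb-bh1, whereas Slc4a1 (0.28) and Epor (0.22) did not pass. The erythroid array medians of 2.31, 3.46 and 3.49 are the values of Hbb-bh1. The part of the marker genes in the ribosomal ratios was not tested. Arrays 2 and 3 resembled each other most: over the 62 genes their difference had an SD of 0.17, while array 1 differed from array 2 with an SD of 0.37 and from array 3 with one of 0.30. Array 1 was the lowest array for 23 genes and the highest for 29. For the 59 ribosomal probes numbered up to 5000 the median of array 1 minus the mean of the others was -0.11, and it was 0.10, 0.17 and 0.038 for the next blocks of 5000. Over all other probes the same medians were -0.053, 0.028, 0.049 and 0.026.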

How the data were processed

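Liver RNA (Cy5) and UMRR (Cy3) were measured on 3 arrays of 2 colours. The authors deposited 1 log2 ratio per probe and array, as read here; the scanner, its background correction, any normalization and the log base are not given here by a label or header, and intensities were not used, so no filter on dim probes was possible. Precision is limited by the number of arrays. All 241 member probes matched the RefSeq gene table (GRCm38.p6) by gene ID. Exact zeros were left out, probes of 1 symbol were averaged, and 5520 genes with ratios on all arrays were fitted with limma 3.58.1 (R 4.3.3; intercept, eBayes, two-sided, Benjamini-Hochberg). The same fit was run after subtracting the family median of each array, and on 5517 probe pairs.

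The gene fit against a ratio of 1 was tested on simulated data, and the other fits were not. In 20 simulations 200 of 5520 genes were given a change. Recovery was 29.9% at a change of 0.5 log2, 72.8% at 1 and 94.4% at 2, and 3.14% of calls were false. Far fewer genes changed there than were called in the data (64%), so these shares need not carry over.

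Members and lists were chosen with earlier results of these data known, and the structural groups were written after the files were read. Named genes were the stalk genes, up to 8 genes furthest above and below the family level, the extremes of each subunit, up to 6 genes with differing probes, relatives with their partners, Rpsa and up to 2 genes of each related list. Cell type markers are given by counts and array medians, with only the erythroid genes named. Other genes named to fill out a structural group, and Eef1a1, were chosen after their values were seen. Alternatives were centring, leaving out each array, ratios on at least 2 arrays, zeros kept, the median probe, trend and robust variance, no moderation, equal weight per source sequence, ribosomal proteins alone, and a mean family level.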

Additional observations from a re-analysis of the deposited data

How the results depend on the processing

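Each ratio already pairs liver with UMRR on the same array, and the arrays form 1 group, so no further pairing was possible. Settings are compared for the count of genes lower in liver (51), higher (3), above (19) and below (13) the family level, the differing probe pairs (67), the medians of the family, the large and the small subunit, and the gap between the subunits. The count lower in liver stayed between 38 and 51 under every setting, and the 3 medians stayed below 0. Leaving out 1 array gave 47 to 51 genes lower and 2 to 5 higher, 13 to 21 above and 3 to 21 below the family level, 46 to 85 probe pairs, a gap between the subunits of 0.090 to 0.14, a family median of -0.89 to -0.83, and large and small subunit medians of -0.80 to -0.79 and -0.94 to -0.89. With exact zeros kept as ratios of 1 the medians were -0.67 for the family, -0.67 for the large and -0.72 for the small subunit. With the median probe per gene, 5 genes were higher, and the family and large subunit medians were -0.91 and -0.87. Without moderation 7 genes were below the family level and 0 probe pairs passed. With source sequences weighted equally the large subunit median was -0.78. Without relatives and other proteins the large and small subunit medians were -0.86 and -0.98, and 8 genes were below the family level. With the mean as the family level 25 genes were below it. The cause was not tested. Of the 678 values of single genes under another setting 616 kept their direction and call, 46 lost the call, 15 gained it and 1 turned: Rpl7l1 without array 1 (0.24, with -0.28 to 0.24 over the arrays left out). The SE of a member gene, 0.089 to 0.22 with 3 arrays, limits what can be resolved. Other background corrections, a dim-probe filter and a slide block could not be run, since scanner intensities were not used here.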

Other observations

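A further 9 probes carry several symbols of which at least 1 is ribosomal, and were left out of the family. The 7 of them with a ratio on all arrays, from 4 source sequences, had means between -1.40 and -0.71, with a median of -1.14, and all 7 were below 0 on each array.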
